A study of Homo sapiens with 34 samples.

Results

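Among promoters of KELLY neuroblastoma cells, 34 protein-coding genes carried trimethylated lysine 4 of histone H3 (H3K4me3) but neither acetylated lysine 27 (H3K27ac) nor trimethylated lysine 27 (H3K27me3). A gene was taken when a merged H3K4me3 region lay within 1000 bp of any of its annotated start sites, all 6 H3K4me3 peak lists had contributed to that region, and no peak of the 6 H3K27ac or 6 H3K27me3 lists reached any of its windows. The 34 genes were 0.170% of 19970 protein-coding genes on chromosomes 1 to 22 and X, and 0.237% of the 14376 genes with such an H3K4me3 region. They rested on 33 regions, because HSPA1L and HSPA1A share one. The genes were chosen by these peak calls, so their levels of H3K4me3, H3K27ac and H3K27me3 beside other promoters are descriptions without a test. The fit of H3K4me3 between treatments is given with its limit, and the count of promoters per set was made over all genes and not over the 34.

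The study profiled 5 histone marks by chromatin immunoprecipitation and sequencing (ChIP-seq) in KELLY, an established human neuroblastoma line with MYCN amplification, to follow the chromatin after silencing of the co-repressor RUNX1T1. All cells, controls included, carried a short hairpin RNA against RUNX1T1 whose expression doxycycline switches on. They were kept for 72 h with DMSO (hairpin not induced) or with doxycycline (hairpin induced), and H3K4me1, H3K4me2, H3K4me3, H3K27ac and H3K27me3 were each profiled in 3 libraries per treatment, which gave 30 peak lists. The labels do not say that the 3 libraries came from separate cultures, so p-values measure the spread between libraries of 1 line. No group received doxycycline without the hairpin, so the agent and the silencing cannot be told apart, and the RUNX1T1 level itself was not measured by these files.

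The libraries held 57.1 to 85.2 M filtered reads. The depth at which peaks were called was 71.9 to 81.1 M reads in DMSO and 57.0 to 63.4 M in doxycycline, so calling depth and treatment cannot be told apart. Lists ran from 23801 to 26592 peaks for H3K4me3, 48171 to 71603 for H3K27ac and 56926 to 157087 for H3K27me3. As a check of the labelled cell type, all 10 adrenergic neuroblastoma genes examined, HAND2 and GATA3 among them, had H3K4me3 and H3K27ac in all 6 lists and H3K27me3 in 0. The same H3K27ac and H3K27me3 calls were found at 10181 of the 14376 genes with an H3K4me3 region. The check is thus weak, and markers of other cell types were not set beside it.

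H3K4me3 marks the nucleosomes beside start sites of genes that are transcribed or open to transcription, and unmethylated CpG-rich DNA recruits the enzymes that place it. At active promoters it is joined by H3K27ac, and at silent developmental promoters by H3K27me3 of the Polycomb system, a pairing called bivalent. H3K4me2 and H3K4me1 usually flank H3K4me3, and H3K4me1 is best known from enhancers. H3K4me3 with neither lysine 27 mark is not a standard promoter class, and absence here means only that no peak was called.

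The promoters of 7 members are printed to show how unlike these sequences were in CpG. Each is the 250 bases before the annotated start site nearest to the H3K4me3 summits, 5′ to 3′ on the gene's strand from the hg38 reference, in lower case with every CpG in capitals. The first 4 had a ratio of observed to expected CpG of 0.6 or more (defined in the next paragraph): ZNF883 (a C2H2 zinc finger gene) at chr9:113012193-113012442 (minus strand), SLC5A7 (the high-affinity choline transporter) at chr2:107986274-107986523 (plus strand), VWC2L (a secreted von Willebrand factor C domain protein) at chr2:214410804-214411053 (plus strand) and INSC (the spindle orientation adaptor inscuteable) at chr11:15114673-15114922 (plus strand). They held 15, 17, 8 and 22 CpG. VWC2L reached that ratio (0.810) with few CpG, 10 in 300 bases against a median of 13.5 in members, at a GC content of 40.7%. The last 3 had a lower ratio: KCNMB2 (a regulatory subunit of the large-conductance calcium-activated potassium channel) at chr3:178536186-178536435 (plus strand), NDST4 (a heparan sulfate N-deacetylase and N-sulfotransferase) at chr4:115113621-115113870 (minus strand) and TRIM21 (a ubiquitin ligase and cytosolic antibody receptor) at chr11:4393703-4393952 (minus strand). They held 4, 5 and 5 CpG.
ZNF883: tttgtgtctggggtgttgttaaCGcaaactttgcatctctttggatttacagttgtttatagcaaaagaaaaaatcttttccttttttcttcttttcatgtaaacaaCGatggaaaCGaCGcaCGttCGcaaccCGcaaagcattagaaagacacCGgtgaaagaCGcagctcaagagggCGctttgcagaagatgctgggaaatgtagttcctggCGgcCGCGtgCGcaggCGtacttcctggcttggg
SLC5A7: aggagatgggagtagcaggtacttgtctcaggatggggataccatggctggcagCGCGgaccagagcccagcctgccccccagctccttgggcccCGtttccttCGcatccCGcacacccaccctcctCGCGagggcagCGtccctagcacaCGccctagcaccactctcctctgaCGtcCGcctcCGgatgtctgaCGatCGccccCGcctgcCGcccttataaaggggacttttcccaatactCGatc
VWC2L: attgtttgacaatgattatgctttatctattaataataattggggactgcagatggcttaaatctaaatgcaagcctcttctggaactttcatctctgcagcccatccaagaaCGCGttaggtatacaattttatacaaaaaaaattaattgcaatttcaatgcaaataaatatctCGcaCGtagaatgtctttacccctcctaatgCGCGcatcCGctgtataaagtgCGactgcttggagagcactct
INSC: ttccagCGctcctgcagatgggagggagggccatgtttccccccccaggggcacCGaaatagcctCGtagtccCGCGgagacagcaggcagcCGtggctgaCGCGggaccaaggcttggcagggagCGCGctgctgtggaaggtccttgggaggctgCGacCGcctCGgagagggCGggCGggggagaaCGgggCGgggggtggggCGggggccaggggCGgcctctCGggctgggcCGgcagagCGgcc
KCNMB2: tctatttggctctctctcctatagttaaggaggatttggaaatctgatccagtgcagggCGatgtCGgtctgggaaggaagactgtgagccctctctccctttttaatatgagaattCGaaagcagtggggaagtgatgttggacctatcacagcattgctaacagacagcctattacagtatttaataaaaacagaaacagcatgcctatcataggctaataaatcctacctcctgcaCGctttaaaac
NDST4: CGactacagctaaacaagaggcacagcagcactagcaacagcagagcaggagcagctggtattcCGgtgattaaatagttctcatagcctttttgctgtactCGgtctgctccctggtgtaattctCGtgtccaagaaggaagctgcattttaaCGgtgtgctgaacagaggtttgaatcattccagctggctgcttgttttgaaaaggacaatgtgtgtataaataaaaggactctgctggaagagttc
TRIM21: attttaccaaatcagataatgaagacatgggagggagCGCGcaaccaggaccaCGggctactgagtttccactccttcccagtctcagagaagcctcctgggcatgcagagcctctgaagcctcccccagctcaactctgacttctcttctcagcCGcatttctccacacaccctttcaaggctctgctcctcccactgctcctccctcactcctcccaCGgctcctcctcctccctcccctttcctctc

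Over 300 bases (250 before and 50 after that start site), the ratio of observed to expected CpG had a median of 0.538 in the 34 members. The median was 0.861 in 10189 acetylated H3K4me3 promoters (a 6-list H3K27ac region, no H3K27me3), 0.812 in 999 bivalent promoters (a 6-list H3K27me3 region, no H3K27ac) and 0.779 over all 19970 genes, taken at the canonical start where no H3K4me3 summit was available. A ratio of 0.6 or more, a usual limit for a CpG island, was reached by 14 of 34 members (41.2%), against 89.1% of acetylated promoters, 86.1% of bivalent promoters and 68.3% of all genes. At their start sites the members thus held both kinds of promoter, from a ratio of 0.0677 at LTB to 1.12 at ZNF883. Of the 34, 24 lay below the lower quartile of acetylated promoters. The H3K4me3 summit lay far from the start at LTB (1114 bp), PCDH20 (1951 bp), HTR2A (1722 bp), HSPA1A (1143 bp), HSPA1L (-1403 bp) and CKM (-900 bp), where minus is upstream. All of these had a ratio under 0.6, which describes their start site and not the DNA at the summit. Median GC content was 59.0% in members, 68.0% in acetylated and 71.0% in bivalent promoters. Promoters are not replicates, so no test was made on this difference.

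**Figure D1:**
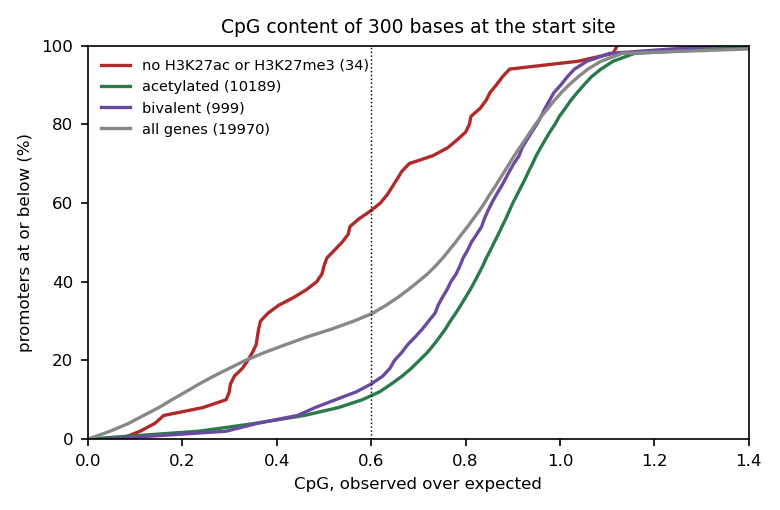
Cumulative share of promoters (y axis, %) at or below each ratio of observed to expected CpG (x axis) in 300 bases at the start site, for the 34 members (red), acetylated (green) and bivalent (purple) H3K4me3 promoters and all genes (grey). The dotted line marks 0.6. The red curve lies to the left of the green and purple curves over most of the range, with 58.8% of members below the line.

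Letters of known promoter elements were counted on both strands of the same 300 bases, as descriptions only. TATAAA, the core of the TATA box, was present in 7 of 34 members (20.6%; SLC5A7, VWC2L, NDST4, HSPA1L, HSPA1A, ZNF883 and MRO), in 3.66% of acetylated promoters, in 4.70% of bivalent promoters and in 8.81% of all genes. In the SLC5A7, VWC2L and NDST4 sequences above it stands close to the 3′ end. CATCTG, an E-box of the kind bound by HAND2 and its partners, was present in 10 members (29.4%) and in 10.8% of all genes. The GC box GGGCGG was present in 15 members (44.1%) and in 60.5% of all genes. CCGGAAGT, the site of ETS factors that is typical of housekeeping promoters, and CACGTG, the E-box of MYC and MAX, were present in 0 members, against 5.24% and 7.90% of all genes. They were present in 8.43% and 9.30% of acetylated and in 0.901% and 7.01% of bivalent promoters, so CCGGAAGT was rare in bivalent promoters too. CCAAT was present in 12 members (35.3%) and in 31.7% of all genes. GAANNTTC, part of the heat shock element, was present in 3 members (8.82%), which were VWC2L and the neighbouring HSPA1L and HSPA1A, and in 5.09% of all genes. HSPA1L and HSPA1A face away from each other, and their 300 bases overlap.

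The state was rare, and most H3K4me3 promoters were acetylated. Of the 14376 genes, 12479 (86.8%) had H3K27ac in all 6 lists and 1107 had it in none. Of these 1107, 1073 had H3K27me3 in at least 1 list and 973 in all 6, which left the 34. Just outside the rule were 27 genes with H3K27ac in a single list and no H3K27me3. Their H3K27ac fold enrichment over input was 1.97 to 4.38 with a median of 2.36, and the call was in a DMSO list for 15 and in a doxycycline list for 12. The 4 of them with the highest mean H3K4me3 percentile within the lists were GCNT1, NEK5, IRAK2 and MPP1, with single H3K27ac peaks of 2.73, 2.28, 2.22 and 2.27. A further 8 genes had no H3K27ac and H3K27me3 in 1 list. All 6 lists of a mark had to be empty at a member, so any weak peak in any of the 12 lists removed a gene.

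H3K4me3 at the members was low and narrow for this line. In each library a gene was read at its highest peak in the window, and a within-list percentile placed that peak's fold enrichment among all peaks of the list. Over 33 members with a peak of every library in the window, the mean fold enrichment of 6 libraries had a median of 9.35 and ran from 4.41 to 26.9, and 30 of the 33 lay below 20.4, the 5th percentile of acetylated promoters. The median was 33.9 in acetylated and 12.0 in bivalent promoters. The median width of the peak per library was 594 to 838 bp in members, 910 to 1155 bp in bivalent promoters and 2044 to 2473 bp in acetylated promoters. The summit lay downstream of the nearest start site in 64.7% to 76.5% of members per library, against 73.0% to 73.6% of acetylated promoters. HTR2A, the serotonin 2A receptor gene, was a member through a 1346-bp region whose peak reached the window in 1 library, DMSO 2, at 32.5-fold, and it is left out of the ranks.

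PCDH20, SLC5A7, ADRA2B, TNIP3 and CA5B were among the 6 highest members. PCDH20, a protocadherin of cell adhesion, had H3K4me3 of 28.4, 27.5 and 20.9-fold in DMSO libraries 1 to 3 and 31.6, 28.7 and 24.3-fold in doxycycline libraries 1 to 3. Its region (chr13:61413321-61415341) ended 508 bp downstream of the single annotated start, so the mark covered the transcribed part and not the start itself. SLC5A7 had 27, 24.9 and 19.6-fold in DMSO and 27, 17.8 and 12.4-fold in doxycycline, over a region (chr2:107986227-107987180) that covered its start. ADRA2B, the alpha-2B adrenergic receptor, had 27.5, 22.6 and 12.3-fold in DMSO and 26.5, 18.4 and 16.5-fold in doxycycline. At ADRA2B the 2 treatments overlapped, and replicate 1 was the highest in each. TNIP3, an inhibitor of NF-kappaB signalling, had a mean of 20.2-fold at an internal start, and its region lay 6713 bp from the canonical start. CA5B, a mitochondrial carbonic anhydrase, had a mean of 17-fold.

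The 6 lowest ranked members were ANKK1, GAL3ST4, ZNF208, LY6G5C, C1orf141 and NDST4. NDST4 had 5.68, 4.04 and 4.6-fold in DMSO and 4.28, 4.52 and 3.32-fold in doxycycline. C1orf141 had 4.95, 5.32 and 4.36-fold in DMSO and 7.34, 3.79 and 3.81-fold in doxycycline. Both genes were low in every library, from 3.32 to 7.34-fold, yet each had a peak in all 6. GAL3ST4, a galactose sulfotransferase, ZNF208, a C2H2 zinc finger gene, ANKK1, a kinase gene beside the dopamine D2 receptor gene, and LY6G5C had means of 5.86, 6.0, 6.34 and 5.8-fold.

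**Figure D2:**
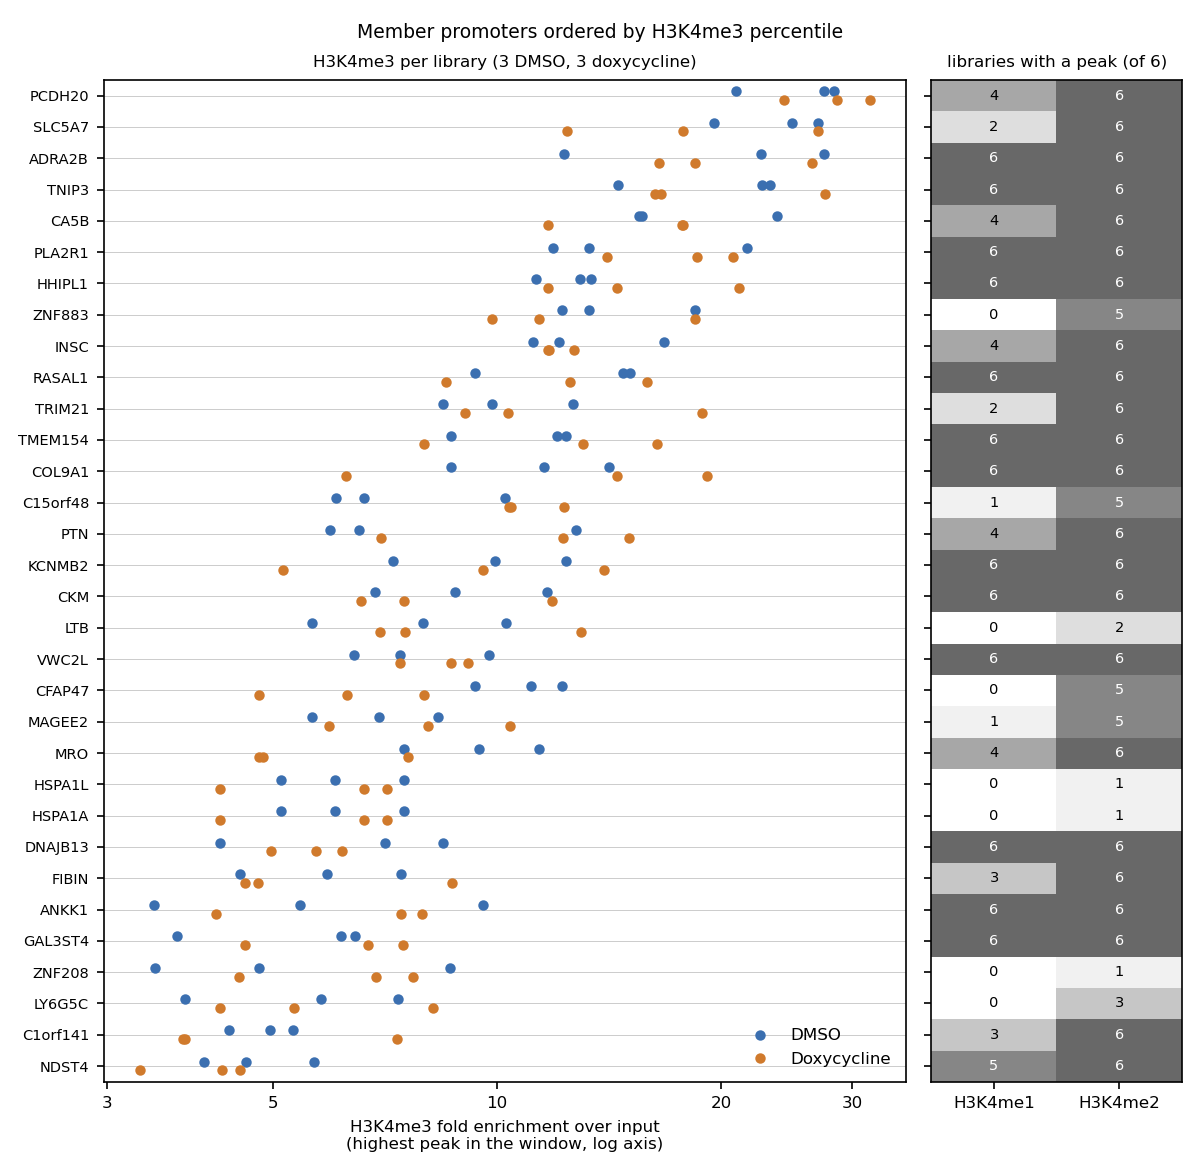
Left, H3K4me3 fold enrichment over input of the highest peak in the window (x axis, log scale) in each of 3 DMSO (blue) and 3 doxycycline (orange) libraries for 32 ranked members (y axis, from the highest to the lowest mean percentile). Right, the number of the 6 H3K4me1 and 6 H3K4me2 libraries with a peak at the same promoter. H3K4me2 stands at 6 for most genes, H3K4me1 ranges from 0 to 6, and the colours separate fully at C15orf48 and CFAP47.

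H3K4me1 and H3K4me2 did not enter the rule, and their shares were tested. They usually flank H3K4me3, so the classes were not set independently of them. The median H3K4me3 fold enrichment was 9.35 in members, 33.9 in acetylated and 12.0 in bivalent promoters. The bearing of this level on the shares was not tested. H3K4me1 was found at 67.6%, 50% and 52.9% of the 34 members in DMSO libraries 1 to 3 and at 70.6%, 52.9% and 61.8% in doxycycline libraries 1 to 3, a mean of 59.3% ± 8.61 (SD, n = 6). In the same libraries it was found at 84.2% to 95.2% of acetylated and at 94.8% to 98.8% of bivalent promoters. The members were lower by 29.9 percentage points than acetylated promoters and by 37.2 points than bivalent promoters, in 6 of 6 libraries each (exact two-sided sign-flip permutation test over 6 libraries, adjusted p = 0.0313 for both, the smallest the design allows). H3K4me2 was found at 91.2%, 79.4% and 79.4% of members in DMSO and at 97.1%, 79.4% and 85.3% in doxycycline, a mean of 85.3% ± 7.44 (SD, n = 6). This was 14 points below acetylated and 12.9 points below bivalent promoters, again in 6 of 6 libraries (exact sign-flip permutation test, adjusted p = 0.0313 for both). The same 34 genes were read in each library, so the test speaks of the libraries and not of other genes. A gene counted when any of its start-site windows held a peak. The median number of starts was 4 in members and 7 in acetylated promoters, so these shares rest on unequal numbers of windows. With canonical starts only, 47 genes met the rule. Their differences from acetylated promoters were -17.8 points for H3K4me1 and -10.6 for H3K4me2 (exact sign-flip permutation test, adjusted p = 0.0625 for both). These tests take the 6 libraries as independent. The series holds only 4 input samples over both treatments. Libraries 1 and 3 were both called against an input of 81.5 M reads in DMSO and of 63.4 M in doxycycline. They thus appear to share an input, so the 6 libraries are not fully independent. With the replicate number as a block, an alternative chosen after the data were seen, the same differences gave an adjusted p of 0.25 for all 4 (exact sign-flip permutation test over 3 numbers), the smallest that this pairing allows, so no call holds under the block.

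The H3K4me1 difference from acetylated promoters depended on the distance read. When a peak had to cover the start site itself, the H3K4me1 shares were 49.5% ± 11.4 in members, 43.8% ± 5.09 in acetylated and 90.6% ± 3.64 in bivalent promoters (SD, n = 6). The difference from acetylated promoters then turned to 5.70 points in favour of members (exact sign-flip permutation test, adjusted p = 0.208). The one from bivalent promoters was 41.0 points with members the lower class (exact sign-flip permutation test, adjusted p = 0.0625). Neither passed after adjustment, but the bivalent difference had the smallest possible unadjusted p (exact sign-flip permutation test, p = 0.0313). With a window of 500 bp the acetylated share was 70.2% and the share of the 42 genes that then met the rule was 62.7%. The acetylated share thus ran from 43.8% over the start to 89.2% within 1000 bp, a wider range than in members. For H3K4me2 over the start itself the shares were 73.0% ± 7.76 in members and 75.9% ± 12.9 in acetylated promoters (SD, n = 6), a difference that was not significant (exact sign-flip permutation test, adjusted p = 0.375).

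**Figure D3:**
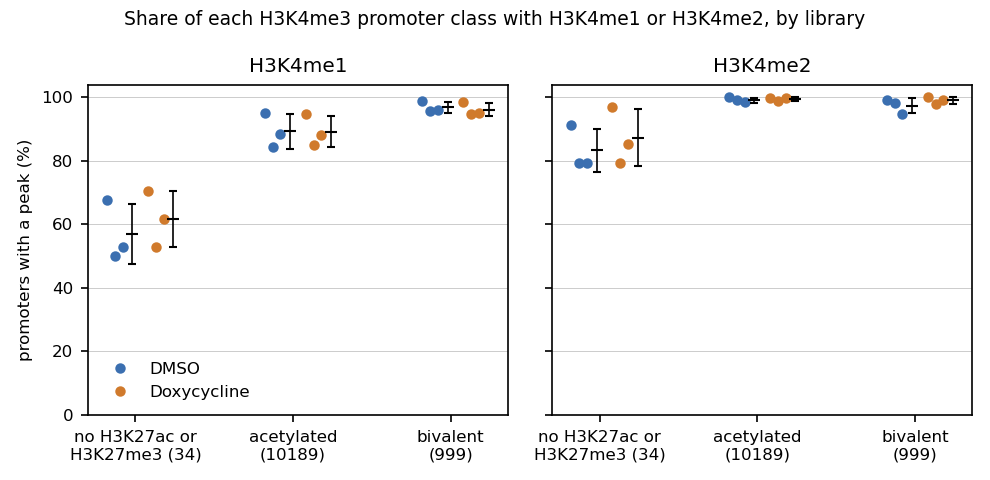
Share of promoters (y axis, %) with an H3K4me1 (left) or H3K4me2 (right) peak within 1000 bp in each DMSO (blue) and doxycycline (orange) library, for the 34 members, 10189 acetylated and 999 bivalent promoters. Black bars give the mean and SD of 3 libraries. The members lie lowest for both marks in every library, most clearly for H3K4me1.

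By gene, 14 members had H3K4me1 in all 6 libraries, 12 in 1 to 5 and 8 in 0, whereas 24 had H3K4me2 in all 6, 10 in 1 to 5 and 0 in none. Those without H3K4me1 included ZNF883, ZNF208, CFAP47, LTB, LY6G5C, HSPA1L and HSPA1A. ZNF208 had H3K4me2 in 1 library, doxycycline 1, at 3.5-fold. Both zinc finger genes among the members were thus without H3K4me1. At the other end, ADRA2B, TNIP3, PLA2R1 (a phospholipase A2 receptor), HHIPL1, RASAL1 (a Ras GTPase-activating protein), TMEM154, COL9A1 (cartilage collagen IX), KCNMB2, CKM (muscle creatine kinase), VWC2L, DNAJB13 (a sperm axoneme protein), ANKK1 and GAL3ST4 had both marks in all 6 libraries. HTR2A had H3K4me1 in 6 libraries, at 2.37 to 2.84-fold, and H3K4me2 in 2. H3K4me1 in 6 libraries was found at 5 of the 14 members with a CpG ratio of 0.6 or more and 9 of the 20 below it, and H3K4me1 in none at 4 of each.

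The members lay at widely differing distances from the lysine 27 marks. The median distance from a member's start sites to the nearest H3K27ac peak of any list was 14.3 kb and to the nearest H3K27me3 peak 22.3 kb. The nearest to H3K27ac were LTB (1006 bp), HTR2A (1020 bp) and CA5B (1085 bp), just past the window. The farthest was MAGEE2 (358892 bp), a MAGE family gene on the X chromosome, and TRIM21 (213859 bp) was among the 3 farthest. C1orf141 (1072 bp) was the nearest to H3K27me3, and TNIP3 (1626 bp) was also close. In all, 8 members were within 2.5 kb of a peak of either mark and 14 were over 10 kb from both, among them SLC5A7 (74675 and 214430 bp) and VWC2L (155033 and 273177 bp). The rule sets its lower limit at 1000 bp.

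**Figure D4:**
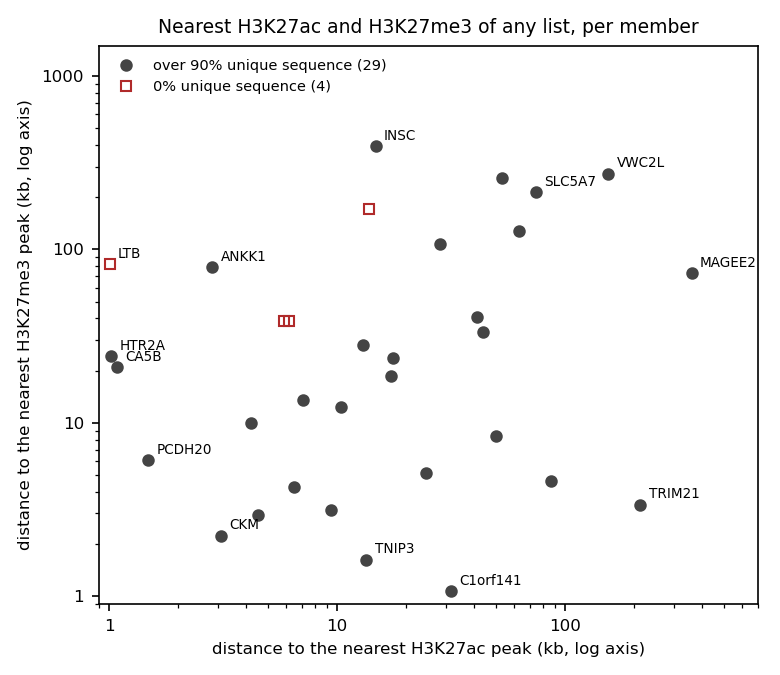
Distance in kb from the start sites of 33 members to the nearest H3K27ac peak (x axis, log scale) and H3K27me3 peak (y axis, log scale) of any list. Filled circles are members in unique sequence and open squares the 4 members of the major histocompatibility complex. LTB, HTR2A and CA5B sit at the left edge and C1orf141 at the lower edge, just past 1 kb, while MAGEE2 and VWC2L lie far from both marks.

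Several of these regions were not at the main start of their gene. The canonical start lay inside the region for 24 members and over 1000 bp from it for 4, which were COL9A1 (19566 bp), DNAJB13 (13468 bp), TNIP3 (6713 bp) and HTR2A (2221 bp). The start nearest to the summits was the canonical one for 17 of 34. Members had a median of 4 annotated start sites, as did bivalent promoters, against 7 in acetylated promoters. A single start was found in 23.5% of members, 16.3% of bivalent promoters and 7.72% of acetylated promoters. The rule removed a gene for a peak of an excluded mark in any of its windows. Genes with fewer starts had fewer windows, so these shares are not independent of the rule. The X chromosome held 3 members (CA5B, CFAP47 and MAGEE2), or 8.82%, against 3.55% of all H3K4me3 promoters.

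For 4 members the reads could not be placed on 1 locus. LTB (lymphotoxin beta), LY6G5C, HSPA1L and HSPA1A (an inducible Hsp70 chaperone) lie in the major histocompatibility complex of chromosome 6, where the build used for alignment holds alternate copies. None of the read-length stretches sampled in their H3K4me3 windows was unique once alternates were counted (0.0%), while over 90% were unique at each of the other 30 members. A promoter of under 50% unique stretches was found in 11.8% of members, 3.26% of acetylated and 5.31% of bivalent promoters. HSPA1B, the near-identical neighbour of HSPA1A, had H3K4me3 and H3K27ac in 6 lists each, and reads of these copies may be split, so the state of HSPA1A and HSPA1L is uncertain. Reads of LTB and LY6G5C may be split over their alternate copies, so the state of these genes is uncertain too. LTB had H3K4me3 of 10.3, 7.95 and 5.65-fold in DMSO and 13, 7.53 and 6.97-fold in doxycycline, but H3K4me2 in 2 libraries and H3K4me1 in 0. Without these 4 genes, an alternative chosen after the data were seen, H3K4me1 was found at 67.2% ± 9.76 and H3K4me2 at 92.8% ± 3.28 of 30 members (SD, n = 6). The differences from acetylated promoters were then -22 and -6.51 points (exact sign-flip permutation test, adjusted p = 0.0313).

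RUNX1T1 silencing was compared by mark. No member had H3K4me1 in 3 of 3 libraries of one treatment and 0 of 3 of the other, a pattern that 0.0626% (gained) and 0.0974% (lost) of the 14376 H3K4me3 promoters showed. For H3K4me2 the count was also 0, against 0.00696% (gained) and 0.0% (lost) of all. H3K4me1 was called in more doxycycline than DMSO libraries at 6 members (C1orf141, SLC5A7, PTN, FIBIN, C15orf48 and MRO) and in fewer at 3 (NDST4, INSC and MAGEE2), where 7.29% and 7.79% of all H3K4me3 promoters did so. H3K4me2 was called in more doxycycline libraries at 7 members (LY6G5C, HSPA1L, HSPA1A, C15orf48, ZNF208, CFAP47 and MAGEE2) and in fewer at 2 (ZNF883 and HTR2A), against 1.61% and 0.327% of all. Of the 7, 3 lie in the sequence of chromosome 6 that is not unique. HSPA1L and HSPA1A, which share 1 region, and ZNF208 had H3K4me2 only in doxycycline library 1. In that library the median H3K4me2 fold enrichment of members was 15.3, against 5.26 to 9.75 in the others. Counts of more or fewer libraries can come only from members with a peak in 1 to 5 libraries (12 for H3K4me1, 10 for H3K4me2). No test was made on these counts. The shares were higher with doxycycline by 4.90 percentage points for H3K4me1 and by 3.92 points for H3K4me2, neither beyond the spread between libraries (exact two-sided permutation test over all assignments, adjusted p = 0.7 for both, where 3 libraries against 3 cannot reach a p under 0.1). MRO, the maestro gene, had H3K4me1 in 1 DMSO library at 2.19-fold and in 3 doxycycline libraries at 2.49 to 3.28-fold. SLC5A7 had it in 0 DMSO libraries and in 2 doxycycline libraries, at 2.37 and 2.16-fold.

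H3K4me3 fold enrichment was compared in a limma fit over the 14349 genes with a peak of all 6 libraries in the window, after log2 transformation and quantile normalisation. A gene without a peak of each library in the window, such as the member HTR2A, could not enter this fit. A region missing from any of the 6 lists could not make a member. The fit thus compares only the height of peaks present in both treatments. No gene passed an adjusted p of 0.05 (0% of those tested), and no member did. At an unadjusted p under 0.05 there were 2085 genes (14.5%) and 2 of 33 members (6.06%), CFAP47 and MRO. Without quantile normalisation these were 143 genes and 1 member, CFAP47, and over the fits that leave out 1 library 1204 to 3024 genes and 2 to 6 members. The lowest counts of genes were 1204, 1244 and 1387, without DMSO replicate 1, DMSO replicate 3 and doxycycline replicate 3, and the 6 members came without DMSO replicate 2. CFAP47, a protein of the ciliary axoneme, had 12.2, 11.1 and 9.34-fold in DMSO and 7.97, 4.80 and 6.29-fold in doxycycline. Every doxycycline library was below every DMSO library at CFAP47, an order found at 0.683% of genes. The difference was -0.91 on the log2 scale (SE 0.25, limma adjusted p = 0.127). MRO had 11.4, 9.47 and 7.50-fold in DMSO and 7.6, 4.80 and 4.85-fold in doxycycline, a difference of -0.84 (SE 0.23, limma adjusted p = 0.128), and its groups overlapped slightly.

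In the other direction, C15orf48 had 10.2, 6.08 and 6.63-fold in DMSO and 12.3, 10.4 and 10.4-fold in doxycycline. Its groups did not overlap, an order found at 1.15% of genes, and the difference was 0.47 (SE 0.26, limma adjusted p = 0.435). PTN, the growth factor pleiotrophin, had 6.54, 12.8 and 5.97-fold in DMSO and 15.0, 12.3 and 6.98-fold in doxycycline, with overlapping groups and a difference of 0.33 (SE 0.25, limma adjusted p = 0.578). SLC5A7 differed by -0.43 (SE 0.22, limma adjusted p = 0.385). Over the 33 members the median difference was -0.05, with 12 higher and 21 lower in doxycycline, beside a median of 0.00 over all genes. This split depended on the scaling and the libraries, with 17 higher and 16 lower (median 0.03) without quantile normalisation and 20 higher and 13 lower (median 0.05) without doxycycline replicate 2. With the pileup of the peak in place of its fold enrichment, 192 genes passed, 147 higher and 45 lower, CFAP47 among them (-0.85, limma adjusted p = 0.0410) and no other member, while C15orf48 turned to -0.35. Without doxycycline replicate 2, 240 genes and no member passed.

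**Figure D5:**
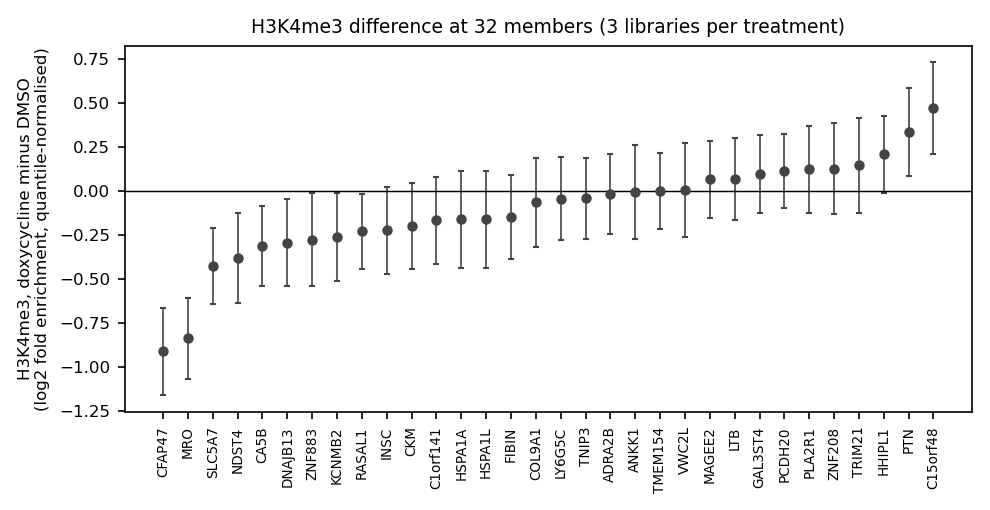
Difference in H3K4me3 (doxycycline minus DMSO, log2 fold enrichment after quantile normalisation, y axis) for 32 members in the limma fit (x axis, ordered by difference), 3 libraries per treatment. Bars are the standard errors of the fit. CFAP47 and MRO lie apart at the lower end, and PTN and C15orf48 are the highest.

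The number of promoters in the state was also counted within each treatment-by-number set, from 1 list of each mark. There were 114, 302 and 293 such promoters in DMSO sets 1 to 3 and 123, 239 and 339 in doxycycline sets 1 to 3. Set 1 was the lowest and its H3K27ac list was the longest in both treatments. The shortest H3K27ac list of all, in doxycycline set 2, did not go with the highest count. The highest counts were in DMSO sets 2 and 3 and doxycycline set 3. Their H3K27me3 libraries had fragment lengths of 112, 105 and 108 bp, shorter than in the other sets. The bearing of either feature on the number of promoters per set was not tested. The mean was 236 ± 106 in DMSO and 234 ± 108 in doxycycline (SD, n = 3), a difference of -0.01 on the log2 scale (exact permutation test, p = 1.0, with 0.1 the smallest possible). Over the 6 sets 582 promoters were in the state at least once, of which 220 were so in a single set and 33 in all 6.

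By gene family, from lists of symbols written with earlier results of these data known, counts are read beside the 0.237% of all H3K4me3 promoters that were members. C2H2 zinc finger genes gave 2 members (ZNF883 and ZNF208) of 517 with an H3K4me3 region. The axoneme list gave 1 (CFAP47) of 102 and does not hold DNAJB13. Genes with KCN, CACN or SCN symbols of potassium, calcium and sodium channels gave 1 (KCNMB2) of 100, solute carriers with SLC symbols 1 (SLC5A7) of 229 and genes with TMEM symbols 1 (TMEM154) of 193, a symbol family that leaves out most transmembrane proteins. None was a member of 59 replication-dependent histones, 83 cytosolic and 78 mitochondrial ribosomal proteins, 52 G protein-coupled receptors of the GPR and ADGR families, 36 meiosis and piRNA genes, 22 interferon and antigen presentation genes, 18 cancer-testis genes, 17 clustered protocadherins, 10 adrenergic factors, 2 keratins and 1 olfactory receptor with such a region. Drawn by symbol, these lists do not hold the members ADRA2B and HTR2A, both receptor genes, or MAGEE2, a MAGE family gene. No test was made on these counts, and nothing is read from a list of so few. ZNF883 had H3K4me3 of 18.5, 12.2 and 13.3-fold in DMSO and 18.5, 9.85 and 11.4-fold in doxycycline, with overlapping groups. KCNMB2 had 12.4, 9.94 and 7.24-fold in DMSO and 9.59, 13.9 and 5.16-fold in doxycycline, again overlapping. TMEM154 had a mean of 11.8-fold.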

How the data were processed

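Per the labels and the study's methods, the authors aligned reads of each library to hg38 with Bowtie2, kept reads above a mapping quality with SAMtools and called peaks against input with MACS2, and deposited 1 peak list per library. The labels name single-end reads and the methods paired ones, and the list headers (MACS2 2.1.1.20160309) give single-end calling. The deposited lists hold pileup (signal), fold enrichment over input (a ratio) and −log10 p and q values per peak, normalised by MACS2 to the smaller of library and input. Per the file headers, H3K4me2 and H3K4me3 lists were narrow calls at a p-value threshold, where the methods give a q-value, and H3K4me1, H3K27ac and H3K27me3 lists were broad calls, whose values are means over the region, so fold enrichments are not compared between the 2 kinds. Replicates were not pooled, and the 4 input samples have no list used here.

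Members and gene lists were chosen with earlier results of these data known. Protein-coding genes of GENCODE hg38 were read within 1000 bp of every start site. The fit used limma 3.58.1 in R 4.3.3 (trend, quantile-normalised log2 fold enrichment, Benjamini-Hochberg), and shares were compared with exact permutation tests in Python 3 (numpy, pandas). Both steps were tested on simulated data. The named genes were the 6 highest and 6 lowest members by H3K4me3 percentile, those with the smallest p in the fit in each direction, list members, those nearest to and farthest from H3K27ac, and the 4 highest just outside the rule. Values of 1 member that this rule names, and of 1 promoter sequence, are not reported here. Deviations of same-numbered libraries of H3K4me3 correlated across genes (0.156, 0.135 and 0.141 for numbers 1 to 3), so the numbers were taken to pair the libraries, and a replicate block was run as an alternative. Windows, start sites, thresholds and left-out libraries were also varied. Uniqueness was the share of 101-base stretches, every 20 bases of each member's window, found once in the reference with its alternate sequences.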

Additional observations from a re-analysis of the deposited data

Results flagged for a closer look

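The peaks on alternate sequences of chromosome 6 were not part of the rule, and the 4 members of the major histocompatibility complex had peaks there. H3K4me3 was listed at all 4 copies of HSPA1A and HSPA1L (up to 9.997-fold over input), all 7 of LTB (up to 12.9-fold) and all 6 of LY6G5C (up to 9.80-fold). H3K4me2 was listed at the same copies, at up to 7.15-fold for HSPA1A and HSPA1L, 7.61-fold for LTB and 10.5-fold for LY6G5C. H3K27ac was listed at 2 of the 7 copies of LTB, in 1 list each, the highest at 2.45-fold (the other at 2.35-fold), and at none of the others. H3K27me3 and H3K4me1 were listed at none. The 2.45-fold peak is in the range of the single H3K27ac calls just outside the rule, and its bearing on LTB was not tested.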

How the results depend on the processing

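The 34 members became 139 when H3K27ac and H3K27me3 peaks needed a −log10 q of 3 or more and 73 when 1 list of each mark could hold a peak, both looser rules by construction. With the first of these, the class differences were smaller, -5.63 (acetylated) and -4.40 (bivalent) points for H3K4me2 and -14.9 and -23.4 for H3K4me1, all past the test. With windows of 500 bp or 2.5 kb, or canonical starts only, 42, 29 and 47 genes were members, 31, 26 and 30 of them shared with the 34. The class differences were tested with the smallest p the design allows, so 1 library against the order, or 5 libraries, ends a call. The Benjamini-Hochberg adjustment can also end a call, when another comparison of the same setting weakens. Leaving out 1 library gave H3K4me2 differences of -16.2 to -12.9 points (acetylated) and -14.9 to -11.7 (bivalent) and H3K4me1 differences of -31.1 to -28.8 and -39.0 to -35.5, all with adjusted p = 0.0625 by exact permutation.

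Calls against acetylated and bivalent promoters were lost, in the same direction, under these settings, with the H3K4me2 values for acetylated and bivalent and then the H3K4me1 values for both: 2.5 kb (-14.9, -13.7, -31.7, -33.7), canonical starts (-10.6, -9.57, -17.8, -32.5), an H3K4me3 peak of each list in the window (-12.4, -11.4, -31.1, -38.5) and H3K4me1 and H3K4me2 peaks of −log10 q of 10 or more (-21.4, -19.3, -11.5, -13.0). With peaks over the start site itself, the values were -2.88, -19.0, 5.70 (reversed) and -41.0. Some of these differences kept an unadjusted p of 0.0313 (exact sign-flip permutation test), the smallest possible, and reached 0.0625 only on adjustment. They were H3K4me1 with 2.5 kb, canonical starts and an H3K4me3 peak of each list, and H3K4me2 with −log10 q of 10. Over the start site, both marks against bivalent promoters were of this kind. With 500 bp, H3K4me1 against acetylated promoters was -7.48 and its call was lost. The cause was not tested. With the replicate block, the values were those of the report (-14.0, -12.9, -29.9, -37.2) and all 4 calls were lost, since the pairing allows no p under 0.25. A mark below the peak threshold counts as absent.

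The share differences and the count per set between treatments passed no test under the settings run. The H3K4me1 share difference turned to -1.68 points with the −log10 q limit of 3 and to -1.96 with that of 10. Leaving out libraries gave 0.49 to 10.3 points for H3K4me1, -0.98 to 7.84 for H3K4me2 (reversed without doxycycline replicate 1) and -0.47 to 0.40 log2 for the count of promoters per set, which was 0.025 with 2.5 kb. With the replicate block, the shares differed by 3.92 and 4.90 points and the counts by -0.01 log2, none past the test, and limma called 0 genes, so the block changed no call between treatments.

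The limma fit called 192 genes with pileup and 240 without doxycycline replicate 2, and 0 to 240 over left-out libraries. Filtering to genes above the median left no member, so it gives no member value. Of 33 members, 11 changed sign with pileup, 5 without quantile normalisation and 1 to 8 over left-out libraries. Among the 6 members with the smallest p in each direction, these were C15orf48 (-0.35), PTN (-0.057), PLA2R1 (-0.11) and NDST4 (0.058) with pileup, and, over the fits that leave out 1 library, TRIM21 (-0.083 to 0.41), PCDH20 (-0.036 to 0.22) and PLA2R1 (-0.15 to 0.28).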
